A study of Mus musculus with 96 samples.

Results

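The 10 genes described here encode chaperones, folding enzymes and degradation factors of the endoplasmic reticulum (ER), together with the transcription factor Xbp1. They were chosen by gene name as targets of the ATF6 and XBP1 branches of the ER unfolded protein response, and all 10 were found among the 54146 Ensembl genes of the count table. The table covers 96 RNA-seq libraries of C2C12 cells, an established mouse myoblast line that fuses into myotubes when serum is withdrawn, in 35 conditions with 2 or 3 libraries each. Proliferating myoblasts were stable lines carrying a doxycycline-inducible transgene, all given 300 ng/ml doxycycline: luciferase (called control here), LbNOX, a bacterial enzyme that oxidizes NADH to NAD+ and makes water from oxygen in the cytosol, mitoLbNOX, the same enzyme sent to the mitochondrial matrix, or NDI1, a yeast NADH dehydrogenase that piericidin does not inhibit. These lines received DMSO (the solvent), 0.5 µM piericidin (an inhibitor of complex I), 0.5 µM antimycin (complex III) or 1 µM oligomycin (ATP synthase) for 10 hr, in media without pyruvate or uridine, although not every line received every drug. In a separate set, control and LbNOX myoblasts were kept for 48 hr with or without 20 µg/ml chloramphenicol, which blocks mitochondrial translation; per the study's description chloramphenicol was given in the presence of uridine, a further difference from the 10 hr set. Cells held for 24 hr in low serum and myotubes after 4 days in low serum were untransduced and were treated for 10 hr without doxycycline, the former with DMSO, piericidin or oligomycin and the latter with any of the 3 drugs or DMSO. Further myotubes were given 0.5 µM BAM15 (an uncoupler) alone or with oligomycin, or oligomycin with piericidin. Another set was given DMSO or oligomycin in 5% oxygen, which began the night before treatment and lasted through it. Others carried an adenovirus expressing GFP or GFP with LbNOX and received DMSO, piericidin or oligomycin. Luciferase, doxycycline and serum therefore differ between the control myoblasts and the other cell states along with differentiation itself.

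Proteins that enter the secretory pathway fold in the ER with the help of abundant chaperones. When unfolded proteins accumulate there, the sensors IRE1 (Ern1), ATF6 and PERK (Eif2ak3) are activated: IRE1 splices the Xbp1 mRNA, ATF6 is cleaved to a transcription factor, and PERK slows translation and raises ATF4. ATF6 and spliced XBP1 induce chaperone and degradation genes, while ATF4 is shared with the integrated stress response, which other kinases can start from outside the ER. Gene-level counts add the spliced and unspliced forms of Xbp1, so its splicing was not measured here.

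Promoter sequences are shown for the members that hold a classical ER stress element, because these elements are what the gene set is known for. RefSeq windows of the 250 bases before the annotated start (GRCm38.p6) were found for 9 of the 10 genes, Hyou1 excepted. The motifs searched on both strands were ERSE (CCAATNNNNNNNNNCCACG), ERSE-II (ATTGGNCCACG), the XBP1 element UPRE (TGACGTGG) and the C/EBP-ATF element CARE (TGATGNAA), a known ATF4 binding site. The CCACG end is common to ERSE and ERSE-II. Capitals mark matches.
Hspa5, chr2:34771840-34772089, plus strand: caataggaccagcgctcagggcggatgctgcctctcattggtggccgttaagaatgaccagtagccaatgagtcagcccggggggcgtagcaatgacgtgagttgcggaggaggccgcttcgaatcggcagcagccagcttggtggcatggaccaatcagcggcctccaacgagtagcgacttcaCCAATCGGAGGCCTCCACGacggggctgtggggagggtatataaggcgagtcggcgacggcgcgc
Herpud1, chr8:94386179-94386428, plus strand: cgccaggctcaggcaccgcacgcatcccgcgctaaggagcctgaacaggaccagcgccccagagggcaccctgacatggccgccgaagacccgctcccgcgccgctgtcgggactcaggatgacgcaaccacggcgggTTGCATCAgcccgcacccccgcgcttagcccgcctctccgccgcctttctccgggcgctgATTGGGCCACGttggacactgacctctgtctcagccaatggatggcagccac
Hsp90b1, chr10:86705445-86705694, minus strand: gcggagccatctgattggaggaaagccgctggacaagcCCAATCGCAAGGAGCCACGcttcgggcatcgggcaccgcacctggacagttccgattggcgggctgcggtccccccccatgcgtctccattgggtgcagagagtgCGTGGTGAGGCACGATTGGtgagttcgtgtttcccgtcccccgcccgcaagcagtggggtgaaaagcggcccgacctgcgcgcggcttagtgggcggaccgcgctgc
Calr, chr8:84846932-84847181, minus strand: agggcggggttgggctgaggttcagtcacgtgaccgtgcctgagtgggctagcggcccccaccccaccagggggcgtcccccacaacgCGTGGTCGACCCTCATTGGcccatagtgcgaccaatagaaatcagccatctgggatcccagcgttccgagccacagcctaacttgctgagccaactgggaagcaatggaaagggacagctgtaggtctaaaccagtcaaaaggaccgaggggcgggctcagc
ERSE was present in 3 of the 9 windows, against 0.113% of the 32851 windows in the RefSeq table. It was found 65 to 47 bases before the start of Hspa5, at 212 to 194 and at 107 to 89 bases in Hsp90b1, and at 162 to 144 bases in Calr. ERSE-II was present in Herpud1 at 52 to 42 bases and in 0.0304% of all windows. CARE was also present in Herpud1, at 112 to 105 bases, and in 3.45% of all windows. UPRE was in none of the 9 windows and in 0.563% of all. A match describes the letters in the window and not binding.

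Total counts ranged from 6458295 to 15366745 per library (median 10336588.5), and levels are given as CPM, counts scaled to library size over all 96 libraries. No pair of libraries of a condition held identical counts. Each transgene was counted at 0 in every library that does not carry it. The 8 myotube markers summed to 11124.6 to 15416.8 CPM in myotubes and 10.8 to 94.3 CPM in myoblasts, and the 9 libraries held for 24 hr in low serum, with 11438.5 to 12163.2 CPM, already expressed them. The 6 proliferation markers summed to 766.9 to 1627 CPM in myoblasts and 25.4 to 190.4 CPM in myotubes. In control myoblasts they also differed between drugs, with means of 1524 CPM in DMSO, 1233 in piericidin, 1209 in oligomycin and 892 in antimycin. Their part in the results was not tested, and in bulk libraries a smaller number of cells of a type and less RNA per cell cannot be told apart.

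Xbp1 and Sdf2l1 were unsteady between libraries of the same condition, which bears on every value of theirs below. The labels give each library a code that reads like a plate position, and 36 of the 96 codes lie on the outer rows or columns. The 12 libraries with the lowest Xbp1 relative to their own group mean all had such an outer code, and the same held for the 12 lowest of Sdf2l1. The 4 libraries with the highest Xbp1 relative to their group had outer codes as well. Over the 96 libraries the deviations of Xbp1 and Sdf2l1 from their group means had a Pearson r of 0.867, a description of points that share a library and its depth. The within-group SD was 0.371 on the log2 scale for Xbp1, 0.244 for Sdf2l1 and 0.208 for the low-count Edem1, against 0.0459 to 0.113 for the other 7 genes. Xbp1 was not alone, since the deviations of 165 other genes of 9967 followed those of Xbp1 with an r above 0.8. All 3 control DMSO libraries had outer codes and no antimycin library of the control line had one. The fit with the outer code as a covariate is therefore given beside values of Xbp1 and Sdf2l1 where it ends or adds a call. It is also given for their main changes in control myoblasts. That covariate takes all outer codes as 1 class. Yet most of the 12 lowest Xbp1 libraries had codes in row A or H, and the 4 highest had codes in row D or E. The covariate does not separate the low libraries from the high ones, so values with it are not free of this spread.

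**Figure D1:**
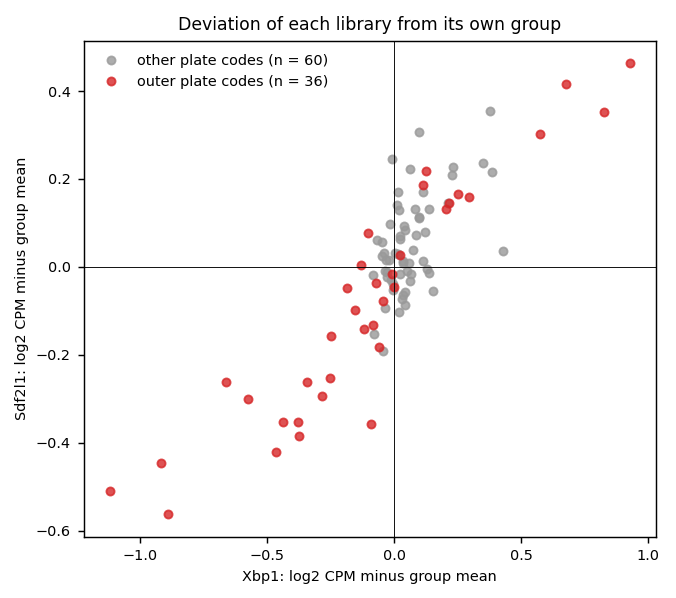
Deviation of each of the 96 libraries from the mean of its own condition, in log2 CPM, for Xbp1 (horizontal axis) and Sdf2l1 (vertical axis). Red points are the 36 libraries with an outer plate code and grey points the other 60; the 12 libraries farthest to the left are all red.

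In control myoblasts the set split. Hspa5, Herpud1, Xbp1 and Dnajb9 rose 4.16- to 6.95-fold with piericidin and 4.18- to 5.77-fold with antimycin, Hyou1 and Edem1 rose less, and Hsp90b1, Calr, Pdia4 and Sdf2l1 stayed between 0.714 and 1.10 times the DMSO level in piericidin. With piericidin 9 of 10 members passed the test (7 higher, 2 lower) where 61.7% of the 11981 genes tested did, and with antimycin 8 of 10 (6 higher, 2 lower) where 63.2% did. These shares of all genes are high, so the size of a change tells more than its call. The median log2 fold change of the 10 genes was 0.617 with piericidin and 0.411 with antimycin, beside -0.0037 and -0.0048 over all genes tested.

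**Figure D2:**
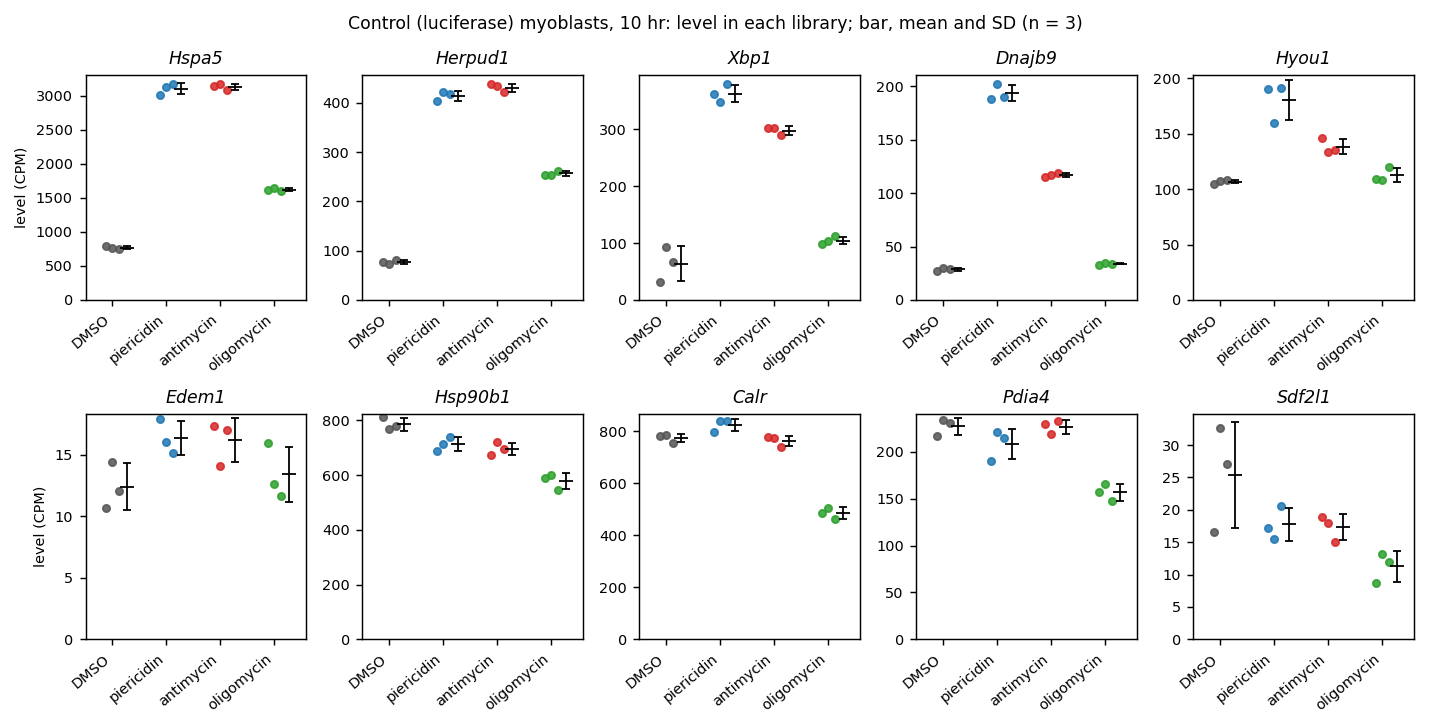
Level of each of the 10 genes (CPM, linear axis from 0) in every control myoblast library after 10 hr of DMSO, piericidin, antimycin or oligomycin; the bars give the mean and SD of 3 libraries. Hspa5, Herpud1, Xbp1 and Dnajb9 stand far above DMSO in piericidin and antimycin, whereas Hsp90b1, Calr, Pdia4 and Sdf2l1 do not.

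Hspa5 encodes BiP (Grp78), the main Hsp70 chaperone of the ER and a brake on all 3 sensors. Its level was 790.5, 762.9 and 749.7 CPM in DMSO, 3016, 3134 and 3177 CPM in piericidin, 3140, 3179 and 3086 CPM in antimycin, and 1619, 1647 and 1596 CPM in oligomycin. The 4 groups did not overlap except for piericidin with antimycin. Piericidin changed it by 2.06 ± 0.043 on the log2 scale (SE; edgeR adjusted p = 2.24e-26) and antimycin by 2.07 ± 0.043 (adjusted p = 1.37e-26). The log2 change after oligomycin was 1.09 ± 0.042 (adjusted p = 1.71e-19).

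Herpud1 encodes a membrane protein that helps to assemble the complex for ER-associated degradation. It stood at 77.04, 72.1 and 80.5 CPM in DMSO, 402.8, 421.0 and 418.1 CPM in piericidin, 437.5, 433.0 and 421.5 CPM in antimycin, and 254.1, 253.4 and 262.1 CPM in oligomycin. All treated libraries lay above all DMSO libraries. Its log2 fold change, 2.48 ± 0.056 in piericidin (adjusted p = 1.15e-25), reached 2.53 ± 0.056 in antimycin (adjusted p = 4.82e-26). That in oligomycin was 1.76 ± 0.055 (adjusted p = 6.15e-22), and for antimycin and oligomycin these were the highest of the 10 genes.

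Dnajb9 (ERdj4), a co-chaperone of BiP that also represses IRE1, was at 26.8, 30.3 and 28.8 CPM in DMSO. It reached 188.5, 202.3 and 190.2 CPM in piericidin and 115.5, 116.9 and 118.5 CPM in antimycin, but 33.1, 34.2 and 34.0 CPM in oligomycin. No treated library overlapped DMSO. Its log2 fold change in piericidin, 2.80 ± 0.084 (adjusted p = 1.79e-22), exceeded that in antimycin, 2.06 ± 0.083 (adjusted p = 2.52e-19), although that difference was not tested. In oligomycin it was 0.25 ± 0.084 (adjusted p = 0.0129), a call lost without DMSO replicate 1 (adjusted p = 0.0702).

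Xbp1 was at 31.2, 92.3 and 67.1 CPM in DMSO, where all 3 libraries had outer codes. Piericidin libraries held 361.6, 348.1 and 378.9 CPM and antimycin libraries 301.7, 302.7 and 289.2 CPM, and the piericidin library with an outer code was the one at 348.1 CPM. The log2 fold change was 2.55 ± 0.27 (adjusted p = 1.88e-09) with piericidin and 2.26 ± 0.27 with antimycin (adjusted p = 1.72e-08). With the outer code as a covariate Xbp1 changed by 2.34 and 1.95 on the log2 scale. For oligomycin, with 98.0, 103.7 and 111.7 CPM, the log2 fold change was 0.73 ± 0.26 (adjusted p = 0.0225), but Xbp1 did not pass the test with that covariate (0.52, adjusted p = 0.0881), without DMSO replicate 1 (0.40, adjusted p = 0.182) or without oligomycin replicate 3 (0.66, adjusted p = 0.0659).

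Hyou1, a large Hsp70-like chaperone and exchange factor for BiP, and Edem1, a lectin-like protein that sends misfolded glycoproteins to degradation, changed modestly. Hyou1 was at 105.2, 107.8 and 107.9 CPM in DMSO, 190.9, 159.7 and 191.5 CPM in piericidin and 146.4, 133.5 and 135.5 CPM in antimycin, log2 fold changes of 0.80 ± 0.074 and 0.41 ± 0.074. Edem1, the lowest of the 10 genes with 10.7 to 14.5 CPM in DMSO, reached 15.1 to 17.9 CPM in piericidin (log2 fold change 0.44 ± 0.13, adjusted p = 0.00518) and 14.1 to 17.4 CPM in antimycin (0.41 ± 0.13, adjusted p = 0.00747), where the groups overlapped. The Edem1 call with antimycin was lost without DMSO replicate 1 (adjusted p = 0.0579) and with no count filter (adjusted p = 0.0512). With oligomycin neither gene passed the test.

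Hsp90b1, Calr and Pdia4 did not show the large rise of Hspa5. Hsp90b1 (Grp94), the ER form of Hsp90, was at 810.4, 766.5 and 778.9 CPM in DMSO, 688.9, 713.9 and 738.1 CPM in piericidin, 672.8, 719.5 and 693.5 CPM in antimycin and 589.3, 599.0 and 546.0 CPM in oligomycin. Every treated library of Hsp90b1 was below every DMSO library, by 0.098 ± 0.041, 0.14 ± 0.041 and 0.43 ± 0.041 on the log2 scale. With the outer code as a covariate Hsp90b1 lost the piericidin call (adjusted p = 0.174) and the antimycin call (adjusted p = 0.0809), and the piericidin call was also lost in 3 of the 6 fits without 1 library.
Calr, the calcium-binding lectin chaperone calreticulin, was at 781.3, 784.2 and 754.7 CPM in DMSO and 487.0, 505.3 and 462.8 CPM in oligomycin, a log2 fold change of -0.66 ± 0.034 (adjusted p = 2.23e-16). In piericidin Calr was higher by 0.13 ± 0.034 on that scale, a call lost without DMSO replicate 3 (adjusted p = 0.119), and in antimycin the log2 fold change was 0.02 ± 0.034 (adjusted p = 0.679).
Pdia4 (Erp72), a protein disulfide isomerase, fell with oligomycin, from 216.8, 233.5 and 231.0 CPM to 156.8, 165.7 and 147.5 CPM (log2 fold change -0.52 ± 0.061, adjusted p = 2.06e-08). It did not pass the test with piericidin (-0.085 ± 0.061) or antimycin (0.034 ± 0.061).

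Sdf2l1, a partner of ER Hsp40 proteins that limits aggregation, was lower with all 3 drugs. Its level was 16.5, 32.6 and 27.1 CPM in DMSO, 17.1, 15.5 and 20.6 CPM in piericidin, 18.9, 18.02 and 15.1 CPM in antimycin, and 8.64, 13.2 and 11.99 CPM in oligomycin. Only the oligomycin libraries all lay below DMSO. The log2 fold change was -1.17 ± 0.20 after oligomycin (adjusted p = 1.26e-05). It was -0.49 ± 0.19 after piericidin (adjusted p = 0.0299) and -0.52 ± 0.19 after antimycin (adjusted p = 0.0197). Without DMSO replicate 2, Sdf2l1 did not pass the test for piericidin (adjusted p = 0.275) or antimycin (adjusted p = 0.209), and the piericidin call was also lost without DMSO replicate 3, piericidin replicate 1 or piericidin replicate 2. The antimycin call was lost without antimycin replicate 3 too, and with the outer code as a covariate the decreases were larger (-0.68 and -0.81).

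Oligomycin thus gave 8 calls among the 10 genes, 4 higher and 4 lower, where 50.8% of all genes passed. Compared directly with oligomycin, antimycin left 9 of 10 members higher and none lower (50% of all genes passed), and piericidin likewise 9 of 10 (39.2%). Edem1 was the exception in both (adjusted p = 0.0733 and 0.0648), and Sdf2l1 was lost in 1 and 2 of the 6 fits without 1 library. The largest of these differences was that of Dnajb9 between piericidin and oligomycin, 2.54 ± 0.084 on the log2 scale.

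Genes with related roles, listed separately from the 10, were also called in both directions. Their counts are descriptions to be read beside the 61.7%, 63.2% and 50.8% of all genes that passed with piericidin, antimycin and oligomycin, and no test set a list apart from all genes. Of 9 ER stress sensors and transcription factors, 6 rose and none fell with piericidin, 5 rose and 2 fell with antimycin, and 4 rose and 2 fell with oligomycin. Ern1, the gene of IRE1, rose by 1.72, 1.60 and 1.30 on the log2 scale, and Atf6 by 1.47, 1.22 and 1.26, whereas Eif2ak3 (PERK) did not pass the test with any of the 3 drugs (0.62, 0.10 and -0.69).
Of 12 other ER chaperones tested, 5 rose and 3 fell with piericidin, 5 and 5 with antimycin, and 3 and 8 with oligomycin. Creld2, an ER folding factor and known ATF6 target, fell with all 3 drugs (log2 fold change -0.95, -0.66 and -1.40). Manf, a secreted ER stress protein, rose by 0.64 with piericidin and fell by 0.91 with oligomycin on the log2 scale.
Among 15 disulfide isomerases and oxidases, Ero1l, the oxidase that recharges protein disulfide isomerase and a known CHOP and hypoxia target, rose by 3.49, 2.97 and 2.95 on the log2 scale, and 7, 6 and 2 members of that list rose while 4, 4 and 7 fell. Of 16 degradation factors, 10, 10 and 6 rose and 1, 3 and 7 fell, the risers including the ubiquitin-conjugating enzyme Ube2g2 (1.48, 1.21 and 0.72). Of 21 translocon and ER-Golgi traffic genes, 11 rose and 3 fell with piericidin, 3 rose and 6 fell with antimycin, and 2 rose and 14 fell with oligomycin. The KDEL receptor Kdelr3 fell with all 3 drugs (-0.33, -0.57 and -0.72).

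The genes listed for the ATF4 branch moved farther. All 10 genes of the ATF4 list rose with each of the 3 drugs, and their median log2 fold change was 3.13 in piericidin, 3.69 in antimycin and 2.80 in oligomycin. The pseudokinase Trib3 rose by 5.26, 5.84 and 4.91 on the log2 scale, and the stress transcription factor Atf3 by 7.34, 8.42 and 5.94. Of 9 mitochondrial chaperones and proteases, 8, 7 and 7 rose, with medians of 0.572, 0.524 and 0.71. The mitochondrial Hsp70 Hspa9 rose by 1.44, 1.40 and 1.36, and the protease Lonp1 by 2.52, 1.80 and 2.42. Among the ER lists the medians with piericidin, antimycin and oligomycin were 0.619, 0.548 and 0.125 for the sensors and transcription factors, 0.606, 0.416 and -0.0962 for the degradation factors, and 0.203, 0.0931 and -0.24 for the other ER chaperones. The medians were -0.0013, 0.0068 and -0.0977 for the disulfide isomerases and oxidases. For the translocon and ER-Golgi traffic genes they were 0.141, -0.0021 and -0.271. All 5 ER lists had a median below that of the ATF4 list with each drug. No test compared the lists with each other. The lists were chosen with earlier results of these data known, so their counts and medians do not rank the branches.

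The study used LbNOX, mitoLbNOX and NDI1 to oxidize NADH independently of complex I. Per the paper, NDI1 passes electrons from NADH to coenzyme Q and so also keeps ATP synthesis going. In NDI1 myoblasts these effects cannot be told apart. With piericidin, 3 of 10 members passed the test in LbNOX myoblasts (1 higher, 2 lower, 8.87% of all genes), 4 in mitoLbNOX (1 higher, 3 lower, 11.2%) and none in NDI1, where 0.00835% of the genes did, a single gene. Hsp90b1, 1 of the 2 lower members in LbNOX, lost its call in 4 of the 6 fits without 1 library. Sdf2l1 in mitoLbNOX was called lower with the outer code as a covariate (-0.72, adjusted p = 0.00344), and also by the DESeq2 Wald test and without the count filter. In NDI1 none of the 10 genes reached an unadjusted p under 0.05, as 1005 of the 11981 genes did, and DESeq2 called none of the 10 either, whereas without the count filter Xbp1 was called (0.55, adjusted p = 1.84e-07). The largest log2 fold change there was 0.57 ± 0.32 for Xbp1 (86.7 and 39.0 CPM in DMSO, 95.9 and 91.3 CPM in piericidin); both DMSO libraries and neither piericidin library had an outer code.
Hspa5 was at 701.7, 779.5 and 741.8 CPM in piericidin-treated LbNOX myoblasts beside 793.5, 781.6 and 716.5 CPM in their DMSO libraries, at 676.8, 698.7 and 678.3 beside 763.1, 762.2 and 677.2 CPM in mitoLbNOX, and at 780.5 and 759.6 beside 778.1 and 817.7 CPM in NDI1. Treated and DMSO libraries overlapped in all 3 lines. The difference from the control line was -2.10 ± 0.060 on the log2 scale in LbNOX (adjusted p = 3.31e-22) and -2.17 ± 0.060 in mitoLbNOX (adjusted p = 2.22e-22). In NDI1 it was -2.11 ± 0.067 (adjusted p = 3.3e-21).
The piericidin response differed from that of the control line for 6 members in LbNOX (44.3% of all genes), 8 in mitoLbNOX (42.8%) and 7 in NDI1 (42.7%). Xbp1 (-2.53, -2.55 and -1.98), Dnajb9 (-2.93, -2.91 and -2.89) and Hyou1 (-0.90, -0.91 and -0.76) were among them in every line. Without 1 library, Edem1 and Hsp90b1 in mitoLbNOX were lost in 5 and 3 of 12 fits, and Sdf2l1 and Calr in NDI1 in 2 and 1 of 10. In these comparisons the control line supplies the same libraries each time.

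Herpud1 kept part of its response where Hspa5 did not. In piericidin it was at 122.8, 133.1 and 129.3 CPM in LbNOX (DMSO 91.4, 105.0 and 91.1 CPM) and at 168.7, 176.4 and 174.1 CPM in mitoLbNOX (DMSO 100.8, 102.9 and 94.5 CPM). These are log2 fold changes of 0.43 ± 0.054 (adjusted p = 1.12e-06) and 0.79 ± 0.054 (adjusted p = 1.26e-12). In NDI1 the libraries held 125.2 and 129.0 CPM with piericidin and 118.0 and 136.4 CPM with DMSO, a log2 fold change of 0.0027 ± 0.065. Without any drug Herpud1 was higher than in the control line in all 3 lines, by 0.33 in LbNOX, 0.38 in mitoLbNOX and 0.73 in NDI1 on the log2 scale. It was 1 of 2 members called in each of these DMSO comparisons, where 2.68%, 1.77% and 4.61% of all genes passed. The other was Calr in LbNOX (0.23) and NDI1 (0.18) and Hsp90b1 in mitoLbNOX (-0.16), the latter lost in 4 of the 6 fits without 1 library.

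**Figure D3:**
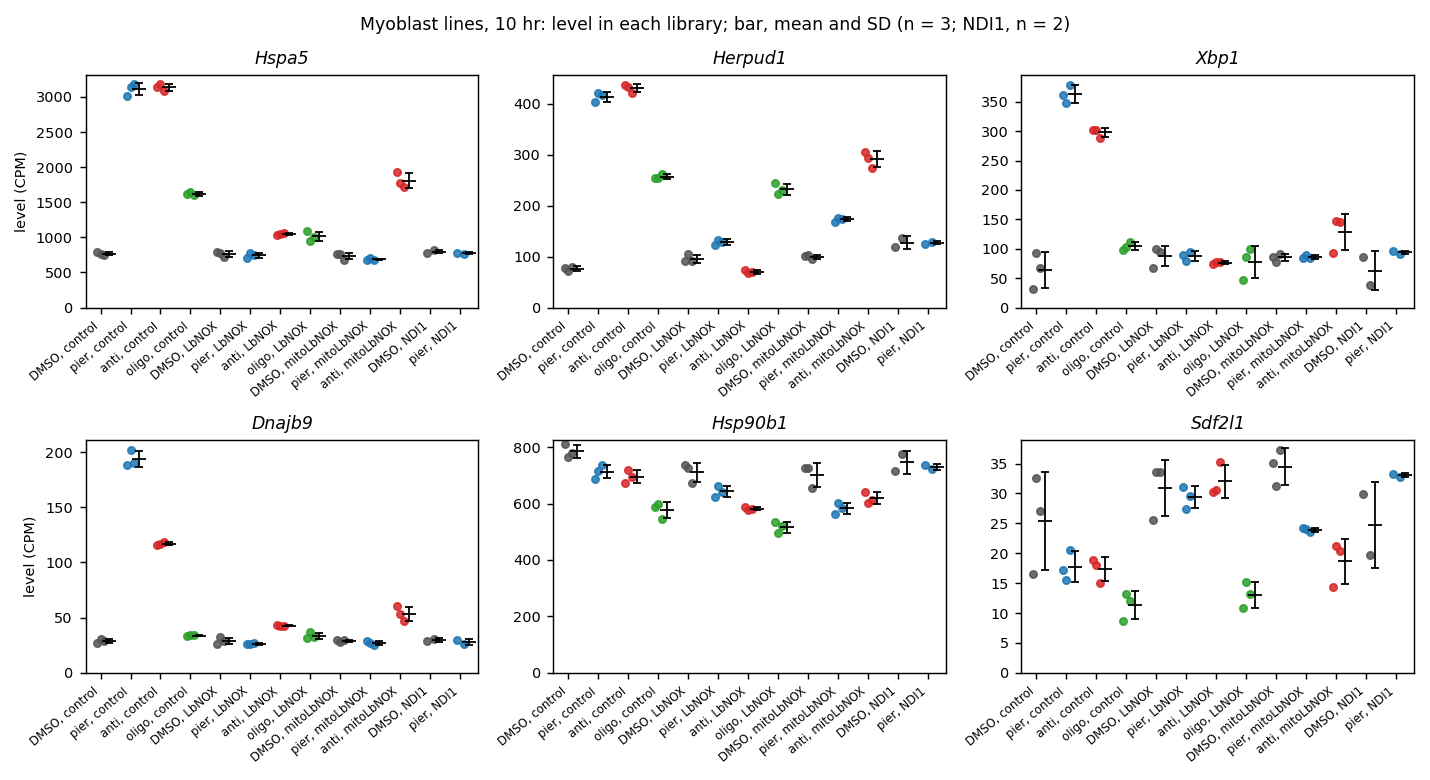
Level (CPM, linear axis from 0) of 6 of the 10 genes in every myoblast library by drug (pier, piericidin; anti, antimycin; oligo, oligomycin) and line, with the mean and SD. In LbNOX, mitoLbNOX and NDI1 myoblasts Hspa5 and Dnajb9 stay near DMSO with piericidin, whereas mitoLbNOX leaves Hspa5 and Herpud1 raised with antimycin.

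With antimycin, which stops respiration at complex III and which NDI1 was not tested against, LbNOX and mitoLbNOX differed more. In LbNOX myoblasts 4 of 10 members passed (2 higher, 2 lower, 46.1% of all genes), and in mitoLbNOX 7 of 10 (4 higher, 3 lower, 47.7%). Hspa5 was at 1032, 1049 and 1062 CPM in LbNOX and at 1933, 1776 and 1717 CPM in mitoLbNOX, log2 fold changes of 0.51 ± 0.042 and 1.32 ± 0.042. Dnajb9 was at 43.6, 42.1 and 42.8 CPM and at 60.2, 53.2 and 46.8 CPM (0.62 ± 0.084 and 0.90 ± 0.083). Herpud1 went in opposite directions: it fell to 73.9, 67.4 and 68.9 CPM in LbNOX, below its DMSO libraries (log2 fold change -0.40 ± 0.055, adjusted p = 6.06e-07), and rose to 304.4, 294.2 and 273.8 CPM in mitoLbNOX (1.56 ± 0.054, adjusted p = 1.11e-20). LbNOX against mitoLbNOX was not tested directly. The paper reports that antimycin in LbNOX myoblasts set off a p53 response that inhibited Atf4, and that added uridine prevented the p53 activation. The part of that response in these values was not tested.
Against the control line the antimycin response differed for 6 members in LbNOX (51.5% of all genes) and 5 in mitoLbNOX (31.7%). Herpud1 differed by -2.92 ± 0.078 in LbNOX and -0.96 ± 0.075 in mitoLbNOX, and Hspa5 by -1.56 ± 0.059 and -0.75 ± 0.059. Sdf2l1 was the member with a less negative response in LbNOX (0.63 ± 0.27, adjusted p = 0.0491), a call lost in 8 of the 12 fits without 1 library.

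Oligomycin was given to control and LbNOX myoblasts. In LbNOX 8 of 10 members passed (3 higher, 5 lower, 35.2% of all genes), with Herpud1 at 243.7, 223.4 and 229.8 CPM and Hspa5 at 1085, 950.8 and 1003 CPM, all above DMSO, while Dnajb9 was lost in 3 of 6 fits without 1 library. The difference between the lines was called for 3 members, where 7.98% of all genes passed: Hspa5 (-0.64 ± 0.059, adjusted p = 8.46e-09), Herpud1 (-0.44 ± 0.076, adjusted p = 0.000196) and Hyou1 (-0.36 ± 0.10, adjusted p = 0.0286), the last of them lost in 6 of the 12 fits without 1 library. The decreases of Hsp90b1 (-0.42), Calr (-0.58), Pdia4 (-0.41) and Sdf2l1 (-1.20) in LbNOX myoblasts were close to those in the control line, and the intervals of the difference were -0.103 to 0.122 for Hsp90b1, -0.0155 to 0.171 for Calr, -0.0581 to 0.279 for Pdia4 and -0.589 to 0.514 for Sdf2l1.

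Chloramphenicol for 48 hr, with 2 libraries per group, raised Herpud1, while Hspa5, Xbp1 and Dnajb9 did not pass the test. In control myoblasts Herpud1 was at 166.4 and 150.5 CPM against 83.1 and 75.5 CPM in DMSO, a log2 fold change of 1.04 ± 0.077 (adjusted p = 7.27e-05). Hspa5 was at 744.7 and 720.8 CPM against 689.6 and 755.7 CPM (0.065 ± 0.047), Xbp1 at 94.0 and 92.3 against 101.1 and 91.4 CPM, and Dnajb9 at 29.0 and 24.1 against 24.0 and 30.5 CPM. The groups overlapped for Hspa5, Xbp1 and Dnajb9.
Calr (-0.47 ± 0.036) and Hsp90b1 (-0.28 ± 0.041) fell, so that 3 of 10 members passed where 8.45% of all genes did, and Sdf2l1 was also called with the outer code as a covariate (-0.69, adjusted p = 0.0451). In LbNOX myoblasts Calr alone passed (-0.26 ± 0.035, 0.931% of all genes, lost in 3 of 4 fits without 1 library), and Herpud1 was at 114.8 and 118.5 CPM against 109.9 and 111.8 CPM. The response of Herpud1 differed between the lines by -0.97 ± 0.11 (adjusted p = 0.0111), the single call among the 10 where 0.53% of all genes passed. That call was lost in 4 of the 8 fits without 1 library, where Herpud1 had adjusted p from 0.0532 to 0.0928.

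Hspa5, Xbp1, Dnajb9 and Herpud1, which rose most in control myoblasts, responded less to piericidin and antimycin in myotubes. In myotubes piericidin gave 2 calls among the 10, both lower (8.99% of all genes), and antimycin 5, of which Herpud1 was higher and 4 were lower (12.9%). Hspa5 was at 830.6, 819.1 and 791.1 CPM in DMSO, 673.7, 707.7 and 749.3 CPM in piericidin and 681.4, 674.1 and 678.0 CPM in antimycin, below DMSO in every library (log2 fold change -0.18 ± 0.038 and -0.24 ± 0.038). Dnajb9 (-0.094 and 0.14) and Xbp1 (-0.25 and -0.22) did not pass the test.
Against control myoblasts the response to piericidin differed for 7 members (46.5% of all genes) and that to antimycin for 6 (47.9%), all with a lower response in myotubes. Hsp90b1, Pdia4 and Sdf2l1 were called in neither, but with the outer code as a covariate Sdf2l1 was called for piericidin in myotubes (0.91, adjusted p = 0.0293) and after 24 hr in low serum (0.85, adjusted p = 0.0385). Hspa5 differed by -2.19 ± 0.045 and -2.26 ± 0.045, and Dnajb9 by -2.84 ± 0.095 and -1.88 ± 0.094. In cells held for 24 hr in low serum piericidin gave 2 calls, Pdia4 higher (0.21) and Calr lower (-0.18), where 2.75% of all genes passed. Calr lost its call in 4 of the 6 fits without 1 library and Pdia4 in 5, and each such fit left at most 1 of the 2. Against control myoblasts 8 members differed in these cells (46.6% of all genes), with Hspa5 at -1.95 ± 0.045. Among the smaller differences, Hsp90b1 after 24 hr in low serum (0.15) was lost in all 12 fits without 1 library, and Edem1 in myotubes with piericidin (-0.62) in 5 of 12. Over all genes, the median of these differences between states was 0.0699, 0.059 and 0.0612 for piericidin in myotubes, antimycin in myotubes and piericidin after 24 hr in low serum.

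Oligomycin acted on part of the set in all states. In myotubes 6 of 10 members passed (1 higher, 5 lower, 33.3% of all genes), and in cells 24 hr in low serum 7 (2 higher, 5 lower, 20.7%). Hyou1 in myotubes was lost in 4 of 6 fits without 1 library. Herpud1 rose from 198.3, 184.1 and 190.4 to 362.2, 362.2 and 368.1 CPM in myotubes (log2 fold change 0.97 ± 0.047, adjusted p = 3.14e-14). After 24 hr in low serum it rose from 135.2, 151.2 and 158.3 to 334.0, 312.5 and 334.6 CPM (1.15 ± 0.066, adjusted p = 2.61e-07). Hspa5 did not: myotubes held 854.3, 747.7 and 792.8 CPM, a log2 fold change of 0.0095 with a 95% interval of -0.0648 to 0.0837, and the cells in low serum 963.8, 951.6 and 957.2 CPM beside 972.8, 1002 and 972.9 CPM.
Hsp90b1, Calr, Pdia4 and Sdf2l1 fell in both, as they had in control myoblasts. Sdf2l1 went from 27.3, 31.0 and 24.8 to 10.3, 15.8 and 16.3 CPM in myotubes (-0.93 ± 0.15), and from 25.7, 37.7 and 39.0 to 16.3, 18.6 and 10.2 CPM after 24 hr in low serum (-1.18 ± 0.25). Edem1 rose in the latter, from 7.92, 6.70 and 7.86 to 12.4, 11.1 and 11.03 CPM (0.62 ± 0.15, adjusted p = 0.0112).
The oligomycin response differed from that of control myoblasts for 4 members in myotubes (29% of all genes) and 5 in the cells in low serum (24.9%), with Hspa5 at -1.08 ± 0.045 and -1.09 ± 0.045 and Herpud1 at -0.79 ± 0.072 and -0.58 ± 0.072. The fifth call after 24 hr in low serum, Calr (0.14), was lost in all 12 fits without 1 library, and Pdia4 (0.26) in 8 of 12. In myotubes the difference of Hyou1 (-0.35) was not called with the outer code as a covariate (-0.18, adjusted p = 0.257).

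In myotubes treated with oligomycin, where 33.3% of all genes passed, 3 of 9 sensors and transcription factors rose (Ern1 1.08, Atf6 0.95 and Mbtps2, a protease that cleaves ATF6, 0.81), and 1 fell. The ATF4 list again led, with 9 of 10 higher and a median log2 fold change of 2.27, and 7 of 9 mitochondrial chaperones and proteases were higher (median 0.518). Of 13 other ER chaperones 3 rose and 6 fell, and of 15 disulfide isomerases and oxidases 2 rose and 9 fell (median -0.294).

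**Figure D4:**
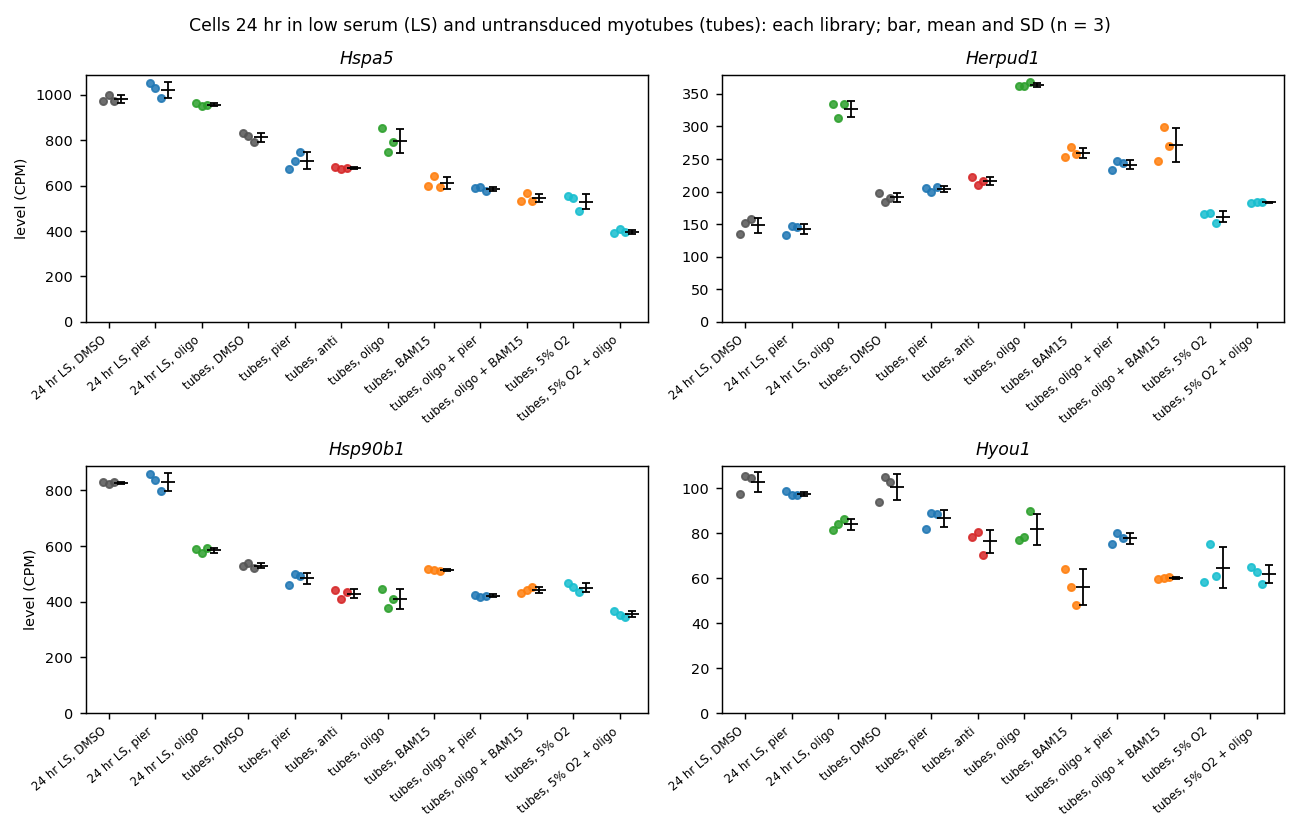
Level (CPM, linear axis from 0) of Hspa5, Herpud1, Hsp90b1 and Hyou1 in every library of cells held for 24 hr in low serum and of untransduced myotubes, by treatment, with the mean and SD of 3 libraries. Herpud1 is highest in the oligomycin libraries of both states, and Hspa5 is lowest in myotubes given oligomycin in 5% oxygen.

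BAM15 and 5% oxygen each lowered Hspa5, Calr, Hyou1 and Sdf2l1 in myotubes. BAM15 gave 6 calls (1 higher, 5 lower, 25.4% of all genes) and 5% oxygen 7, all lower (22.1%). Hsp90b1 and Pdia4 fell in 5% oxygen (log2 fold change -0.18 and -0.45) and did not pass the test with BAM15 (0.021 and -0.10), while Dnajb9 and Edem1 passed in neither. Of the 13 other ER chaperones, 3 rose and 4 fell with BAM15, and 1 rose and 4 fell in 5% oxygen. Hyou1, also known as Orp150 for its induction by oxygen deprivation, fell from 93.9, 105.0 and 102.6 CPM to 64.3, 56.0 and 48.2 CPM with BAM15 (-0.78 ± 0.084) and to 58.1, 75.1 and 60.9 CPM in 5% oxygen (-0.59 ± 0.084). Hspa5 fell to 598.3, 642.4 and 595.9 CPM with BAM15 (-0.35 ± 0.038) and to 553.5, 547.0 and 489.9 CPM in 5% oxygen (-0.57 ± 0.038). Herpud1 rose with BAM15, to 252.7, 267.9 and 257.7 CPM (0.50 ± 0.047), and fell in 5% oxygen, to 165.9, 166.3 and 151.9 CPM (-0.19 ± 0.048). The lower value of Xbp1 with BAM15 (-0.49 ± 0.15) was not called with the outer code as a covariate (-0.28, adjusted p = 0.0856) and in 3 of 6 fits without 1 library.

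Adding a second condition to oligomycin reduced the Herpud1 increase. Herpud1 was at 232.9, 247.0 and 244.2 CPM with oligomycin and piericidin, 246.8, 298.7 and 269.8 CPM with oligomycin and BAM15, and 182.5, 183.5 and 184.6 CPM with oligomycin in 5% oxygen, all below the oligomycin libraries. The log2 differences from oligomycin alone were -0.59 ± 0.047, -0.40 ± 0.047 and -0.97 ± 0.048. Hspa5 was also lower in each, by -0.44 ± 0.038, -0.52 ± 0.038 and -0.99 ± 0.038. These 3 comparisons called 4 members (20.9% of all genes), 5 (26.1%) and 7 (33.3%), and share the same oligomycin libraries. Without 1 library, Dnajb9 lost its call with piericidin in 3 of 6 fits and in 5% oxygen in 4, and Hsp90b1 with BAM15 in 2, whereas Xbp1 in 5% oxygen was also called with the outer code as a covariate (-0.30, adjusted p = 0.0391). Within 5% oxygen, oligomycin changed Herpud1 by 0.19 ± 0.048 and Hspa5 by -0.41 ± 0.038 against DMSO, 2 of 5 calls there (4.26% of all genes), and without 1 library that of Herpud1 was lost in 2 of 6 fits and that of Dnajb9 in all 6. Against BAM15 alone, BAM15 with oligomycin gave 4 calls, all lower (1.7% of all genes; Hspa5 lost in 4 and Pdia4 in 2 of 6 fits without 1 library), and Herpud1 was not among them (0.072, adjusted p = 0.605).

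Myotubes that carried an adenovirus responded to oligomycin in both GFP and LbNOX cultures. With GFP 7 members passed (3 higher, 4 lower, 25.9% of all genes) and with LbNOX 8 (4 higher, 4 lower, 32%). Pdia4 was lost in 3 of 4 fits without 1 library with GFP and in 1 of 6 with LbNOX, where Xbp1 was lost in 4. Herpud1 went from 199.1 and 188.5 to 388.6 and 380.1 CPM with GFP, and from 180.5, 192.6 and 181.9 to 369.4, 364.7 and 374.8 CPM with LbNOX. Hspa5, which had not changed detectably in untransduced myotubes, went from 735.8 and 696.3 to 1039 and 954.4 CPM (0.46 ± 0.057, adjusted p = 2.57e-05) and from 736.8, 752.0 and 698.6 to 934.3, 919.3 and 905.3 CPM (0.33 ± 0.046, adjusted p = 5.79e-05). Virus-treated and untransduced myotubes were not tested against each other.
The oligomycin response did not differ detectably between LbNOX and GFP myotubes for any of the 10 genes, where 0% of the 12397 genes tested passed in edgeR and 525 had an unadjusted p under 0.05. The smallest adjusted p among the 10 was 0.973, and the interval of the difference was -0.273 to 0.0136 for Hspa5 and -0.109 to 0.154 for Herpud1. In DMSO none of the 10 differed between LbNOX and GFP myotubes either (0.0242% of all genes). Piericidin gave 1 call with GFP (Hsp90b1, 3.09% of all genes) and 2 with LbNOX (Herpud1 and Calr, 6.78%). With the outer code as a covariate Xbp1 was called lower in both (-0.29, adjusted p = 0.00874, and -0.17, adjusted p = 0.0417). The call of Hsp90b1 was lost in all 4 fits without 1 library, that of Calr in 4 of 6 and that of Herpud1 in 1 of 6.

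Baseline levels in DMSO also shifted with the state of the cell. Cells 24 hr in low serum against control myoblasts had 7 members called (5 higher, 2 lower), where 63.6% of all genes were, and myotubes against those cells 5 (1 higher, 4 lower, 35.6%). Calr, 1 of the 2 lower members in low serum, lost its call in all 6 fits without 1 library. Dnajb9 rose from 26.8, 30.3 and 28.8 to 68.9, 63.0 and 65.9 CPM in low serum (log2 difference 1.19 ± 0.068), Herpud1 by 0.94 ± 0.052 and Xbp1 by 1.07 ± 0.35, the last not called without DMSO replicate 1 of the control myoblasts (0.79, adjusted p = 0.0529). In myotubes Hsp90b1 was lower than after 24 hr in low serum by -0.63 ± 0.043 and Pdia4 by -0.62 ± 0.052. Per kb of the longest coding transcript in GENCODE M21, the order of mean levels in control DMSO myoblasts was Calr (354.1 CPM per kb), Hsp90b1 (278.0), Hspa5 (209.1), Pdia4 (94.7), Herpud1 (39.2), Xbp1 (29.8), Hyou1 (23.8), Sdf2l1 (22.9), Dnajb9 (11.6) and Edem1 (2.13). In that order Herpud1 and Xbp1, Xbp1 and Hyou1, and Hyou1 and Sdf2l1 overlapped in their libraries. The order depends on the transcript length used: per kb of the median coding transcript, Hsp90b1 (398.2 CPM per kb) was above Calr (354.1) and Xbp1 (57.8) above Herpud1 (40.9).

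Over the 23 comparisons of a treated condition with its own DMSO, Herpud1 was the member most often called higher, 16 times, with 2 calls lower. Hspa5 was higher in 8 and lower in 5, Dnajb9 higher in 8 and lower in 1, and Xbp1 higher in 4 and lower in 1. At the other end, Calr was most often called lower, in 18, and was higher in 1. Hsp90b1 was lower in 17 and Sdf2l1 in 11, and neither was ever called higher. The share of all genes called in these comparisons ran from 0.00835% to 63.2%, and many share a DMSO group. How often other genes were called over them was not counted. The counts include calls that were lost without 1 library, among them calls of Calr and Hsp90b1. Between the lowest and highest of the 35 condition means, Dnajb9 spanned 8.96-fold, Hspa5 7.89-fold, Herpud1 6.15-fold and Xbp1 5.77-fold, whereas Hsp90b1 spanned 2.34-fold.

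**Figure D5:**
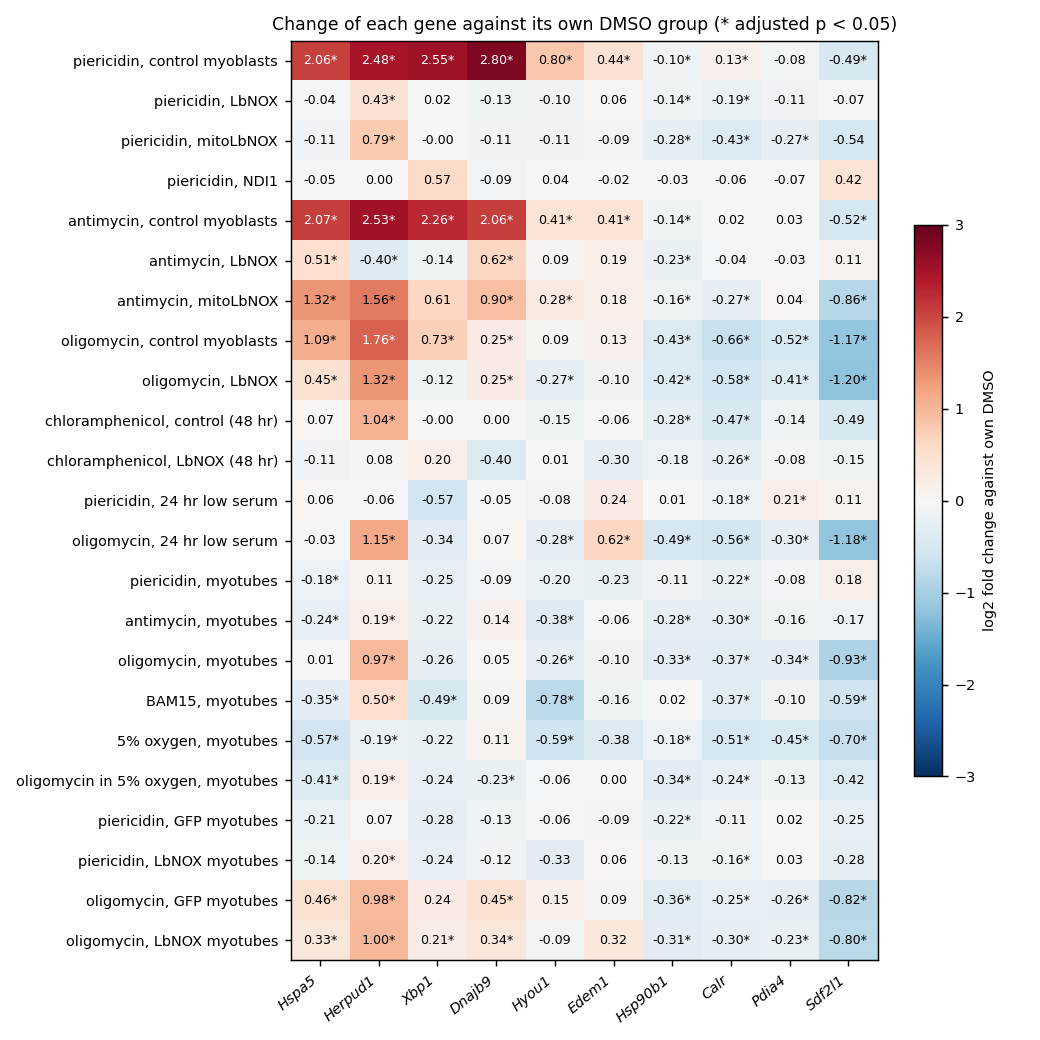
Log2 fold change of each gene (columns) against its own DMSO group (rows: treatment and cells, 23 comparisons), red higher and blue lower, with an asterisk where the adjusted p is under 0.05. The first 4 columns are red in the control myoblast rows of piericidin and antimycin, and the last 4 columns are mostly blue in the oligomycin rows.

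Correlations between members were taken over 25 treated conditions, each as the mean log2 CPM minus that of the DMSO group of the same cells. For all untransduced myotubes, those in 5% oxygen included, this was the DMSO group in ambient oxygen, unlike in the 23 comparisons above, where oligomycin in 5% oxygen was set against DMSO in 5% oxygen. Hspa5 had a Pearson r of 0.868 with Xbp1, 0.871 with Dnajb9, 0.827 with Herpud1 and 0.855 with Hyou1, but 0.131 with Hsp90b1 and -0.0737 with Sdf2l1. Pdia4 had an r of 0.827 with Calr, 0.776 with Hsp90b1 and 0.701 with Sdf2l1. These are descriptions over 25 conditions, many of which share a DMSO group. Among the 10138 named genes tested in every fit, those most like Hspa5 were Plaur (r = 0.955), Atp5b (0.945) and Pdhb (0.941). Those like Xbp1 included Bcl7b (0.922) and Siah1b (0.913), and those most like Herpud1 were Rhbdd1 (0.961), Snai2 (0.96) and Nupr1 (0.952). By rank over the same conditions (Spearman rho), Bcl7b and Siah1b had only 0.648 and 0.644 with Xbp1, and Atp5b 0.814 with Hspa5. The other genes named here had 0.908 to 0.965.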

How the data were processed

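Smart-seq2 libraries (poly(A) selected, not strand specific) were pseudoaligned by the authors with kallisto 0.44 to the Ensembl mouse transcriptome (GRCm38) with the transgene sequences added. The deposited table holds estimated counts per gene, summed over flow cells and rounded to whole numbers by the authors, without normalization. Kallisto assigns reads to transcripts by probability, so genes with near-identical or overlapping copies are less certain.

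Counts were tested with edgeR 4.0.16 (TMM scaling, quasi-likelihood F test, two-sided) in R 4.3.3, in 6 fits with 48 comparisons, over genes with at least 16 counts in every library of at least 1 group. Benjamini-Hochberg adjustment ran over all genes tested in a comparison, with a threshold of 0.05. SE is the log2 fold change divided by the root of F, and intervals are 95%. CPM values were scaled over all libraries, so they can differ slightly from the fold changes. Alternatives were size factors and the Wald test of DESeq2 1.42.0, no count filter, a replicate block, the outer plate code as a covariate, and leaving out each library. The fits were tested on simulated data. Replicate numbers did not pair the libraries. Nothing in the labels says that libraries came from separate cultures, so p-values measure the spread between libraries. The members and gene lists were chosen with earlier results of these data known. Named from the other lists were all ER stress sensors and, in the oligomycin, piericidin and antimycin comparisons, genes among the 3 with the largest change per direction. Doses come from the methods of the study. Sequences and starts are from RefSeq. A gene that the rule on likeness names is not reported here.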

Additional observations from a re-analysis of the deposited data

Results flagged for a closer look

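The response to a treatment differed between cell lines or cell states, by a test of the difference itself, for the following numbers of the 10 genes. The share of all genes called is given in brackets, and several counts lie near it. For piericidin they were 6 in LbNOX (44.3%), 8 in mitoLbNOX (42.8%) and 7 in NDI1 myoblasts (42.7%) against control myoblasts, 7 in myotubes (46.5%) and 8 in cells 24 hr in low serum (46.6%). For antimycin they were 6 in LbNOX (51.5%) and 5 in mitoLbNOX myoblasts (31.7%) and 6 in myotubes (47.9%). For oligomycin they were 3 in LbNOX myoblasts (7.98%), 4 in myotubes (29%) and 5 in cells 24 hr in low serum (24.9%). For chloramphenicol it was 1 (0.53%), Herpud1 in LbNOX against control myoblasts. All of these comparisons use the control myoblast libraries of their own experiment. Apart from the ranking by deviation and the fits without 1 library, groups of 2 or 3 libraries were not searched for single outlying libraries.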

How the results depend on the processing

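Of 235 calls made on the 10 genes over all comparisons, 189 held in every alternative and 46 were lost in at least 1, and no called change reversed. Of the 245 differences not called, 47 were called in at least 1 alternative: 29 without the count filter (19 of them Xbp1), 27 in a fit without 1 library, 15 with the outer plate code, 9 with the DESeq2 Wald test, 3 with the replicate block and 1 with DESeq2 size factors, a difference counting under each. Most losses were small changes, or Xbp1 and Sdf2l1, and their causes were not tested beyond the plate code. Without the count filter, the number of members called was 1 for piericidin in NDI1 myoblasts, 2 for chloramphenicol in LbNOX myoblasts, 2 for its difference between the lines, 3 for piericidin in GFP myotubes and 5 in LbNOX myotubes. The Wald test of DESeq2 gave 2, 2, 2 and 4 for the last 4 of these. With the outer plate code as a covariate, piericidin in GFP and LbNOX myotubes called 3 and 4 members. The replicate numbers did not pair the libraries (mean correlation of same-numbered deviations 0.0262 in myoblasts at 10 hr), and a fit with the replicate block called 0 members for piericidin in GFP myotubes, where Hsp90b1 was lost. Elsewhere the block ended the call of Dnajb9 for oligomycin in 5% oxygen. The outer code could not be fitted in cells 24 hr in low serum alone, where all 9 libraries carry one. Leaving out 1 library at a time moved the count over 1 to 2 for mitoLbNOX against control in DMSO, 0 to 2 for chloramphenicol in LbNOX myoblasts, 0 to 1 for its difference between lines, 3 to 4 for oligomycin in 5% oxygen, 2 to 4 for oligomycin with BAM15 against BAM15, 0 to 0 and 0 to 3 for piericidin in GFP and LbNOX myotubes, 0 to 1 for piericidin in low serum, and 3 to 4 for the oligomycin difference between cells in low serum and control myoblasts. Where this left 1 library in a group, the lone library was assumed to vary like the other groups. With 2 or 3 libraries per group, Xbp1, Sdf2l1 and Edem1 varied most between libraries of a condition, Edem1 at 49 to 231 counts per library.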
